A study of Mus musculus with 21 samples.

Results

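Lonrf3, Ccbe1, Sulf1, Dpep1, Gprc5c and Sec14l5 are 6 genes whose counts differed between BATI4KO and floxed mice with the same sign in brown adipose tissue (BAT) and in white vastus lateralis (WV), a thigh muscle. Lonrf3, Ccbe1, Sulf1 and Dpep1 were lower in BATI4KO mice in both tissues, and Gprc5c and Sec14l5 were higher in both. The genes were chosen by their genotype differences, for that shared sign in these libraries, so the differences stand here as a description with no test. Each of the 6 symbols matched 1 gene model in each table, out of 28541 models with 27691 distinct symbols.

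The study sequenced RNA of whole tissue from 5 floxed and 6 BATI4KO BAT libraries and from 5 floxed and 5 BATI4KO WV libraries. BATI4KO is the name of a mouse line in which, as the line is known from the study, a Cre recombinase driven by the Ucp1 promoter removes the loxP-flanked gene of the transcription factor IRF4 from brown adipocytes. The controls are floxed mice, which carry the loxP-flanked gene, and the same genotype names apply to the BAT and the WV groups. The labels give neither the deleted exons nor the age of the mice. BAT titles end in a short number (1, 2 or 3 in each genotype) or in a long tag (FX_5497 and FX_5503, KO_5414, KO_5492 and KO_5494), and all WV titles end in long tags. FX in a title marks floxed and KO marks BATI4KO mice. BAT and WV share the tags FX_5497, FX_5503, KO_5492 and KO_5494. Whether a tag is an animal is not stated, so the p-values below measure the spread between libraries, which may be in part technical.

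A BAT library held 20219479 to 41773148 counts and a WV library 30479508 to 40328627. In BAT, Irf4 was at 17.9 to 43.5 counts per 1000000 (CPM) in floxed and 4.92 to 5.95 CPM in BATI4KO libraries, a log2 difference of -2.45 ± 0.24 (SE, edgeR adjusted p = 0.0026), with each library on its label's side. In WV, Irf4 averaged 5.10 ± 1.22 CPM (SD, n = 5) in floxed and 3.73 ± 0.445 CPM (SD, n = 5) in BATI4KO libraries. Its log2 difference there was also below 0, at -0.48 ± 0.19 (SE, edgeR unadjusted p = 0.0224). It did not pass after adjustment (edgeR adjusted p = 0.489). Ucp1, the brown adipocyte uncoupling protein, averaged 2813 CPM in floxed BAT and reached at most 0.412 CPM in a WV library. The skeletal muscle markers summed to 140929 to 265480 CPM in WV. Title style divided the BAT libraries: 5031 of 16051 genes (31.3%) differed between short-number and long-tag libraries with genotype in the model, and the BAT genotype fit therefore carried title style as a covariate.

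The 6 proteins act in different places. CCBE1 is secreted and helps the protease ADAMTS3 activate VEGF-C, the growth factor of lymphatic vessels, and SULF1 removes sulfate groups from heparan sulfate outside the cell, which changes how growth factors bind there. DPEP1 is a membrane-anchored dipeptidase that acts on breakdown products of glutathione and on leukotrienes, and GPRC5C is an orphan receptor of the group induced by retinoic acid. LONRF3 carries the RING domain found in ubiquitin ligases, and SEC14L5 belongs to a family of lipid-binding proteins named after yeast Sec14.

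The genes lie on 6 different chromosomes, Lonrf3 on X, Ccbe1 on 18, Sulf1 on 1, Dpep1 on 8, Gprc5c on 11 and Sec14l5 on 16, and none lies on chromosome 13 with Irf4. In the GENCODE annotation of GRCm38, Ccbe1 overlaps Mir694, a microRNA gene that the tables count as well, and the antisense gene Gm15958, and Dpep1 overlaps Gm20388 on the same strand. Strand handling of the counts is not given in the sources used here, so reads of these overlapping genes cannot be told apart. RefSeq sequences of GRCm38.p6 were matched by symbol for 3 of the genes. These 3, Lonrf3 and Dpep1 of the lower and Sec14l5 of the higher genes, are the ones for which a match was found. Their 250 bases before the transcription start are shown because IRF4, the factor removed in BATI4KO mice, is known to bind elements built on GAAA. Each is written 5′ to 3′ along the plus strand, on which all 3 genes lie, at chrX:36328159-36328408 for Lonrf3, chr8:123185985-123186234 for Dpep1 and chr16:5146859-5147108 for Sec14l5. Capitals mark GAAA, or TTTC where it lies on the opposite strand.
Lonrf3: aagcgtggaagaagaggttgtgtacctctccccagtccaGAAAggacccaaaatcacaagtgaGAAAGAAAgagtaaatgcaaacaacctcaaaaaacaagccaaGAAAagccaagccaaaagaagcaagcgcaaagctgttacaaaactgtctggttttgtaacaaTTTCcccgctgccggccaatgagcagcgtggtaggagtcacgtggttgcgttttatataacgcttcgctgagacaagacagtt
Dpep1: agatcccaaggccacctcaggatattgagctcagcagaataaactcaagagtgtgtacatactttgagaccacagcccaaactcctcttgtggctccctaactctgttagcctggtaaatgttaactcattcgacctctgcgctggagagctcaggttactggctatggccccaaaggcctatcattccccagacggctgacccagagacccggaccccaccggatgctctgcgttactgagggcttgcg
Sec14l5: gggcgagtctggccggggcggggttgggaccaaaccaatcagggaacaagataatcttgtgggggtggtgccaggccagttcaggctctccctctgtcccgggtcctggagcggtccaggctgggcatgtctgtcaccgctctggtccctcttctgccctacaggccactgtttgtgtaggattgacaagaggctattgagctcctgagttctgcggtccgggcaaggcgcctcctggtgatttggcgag

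The Lonrf3 window held 5 matches of GAAA, 4 on the strand shown and 1 on the opposite strand, and 16.8% of the 32851 RefSeq windows of this length held as many. The Dpep1 and Sec14l5 windows held 0, while 86.4% of all windows held at least 1 and the median was 2. The spaced pair of GAAA, any 2 bases and GAAA, with 2.98% of windows holding it, the composite of GGAA, any 2 bases and GAAA, with 2.3%, and TGANTCA, the AP-1 element, with 6.75%, were searched on both strands and had 0 matches in the 3 windows. The first and second of these motifs share the letters GAAA with the single element, so their matches can overlap it. A match of letters is a description and not a binding site, and the absence of these letters concerns only these windows.

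Lonrf3 separated the genotypes in both tissues. In floxed BAT it stood at 5.89, 5.66 and 4.78 CPM in libraries 1, 2 and 3, at 6.14 CPM in FX_5497 and at 7.55 CPM in FX_5503. In BATI4KO BAT the lowest library was at 1.90 CPM (KO_5492), the median at 2.47 CPM and the highest at 4.51 CPM (KO_5414). Every BATI4KO library lay below every floxed one, and the same held within the short numbers and within the long tags. In WV the floxed libraries were at 22.4 (FX_5413), 16.6 (FX_5415), 16.4 (FX_5497), 19.5 (FX_5503) and 14.03 CPM (FX_5514), and the BATI4KO libraries at 5.86 (KO_5492), 6.01 (KO_5493), 6.07 (KO_5494), 7.52 (KO_5495) and 11.9 CPM (KO_5496). The groups did not overlap in WV either, with library KO_5496 closest to the floxed ones. The fitted difference, BATI4KO minus floxed, was -1.16 ± 0.20 on the log2 scale (SE) in BAT and -1.28 ± 0.20 in WV, or 2.24-fold and 2.42-fold lower.

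**Figure D1:**
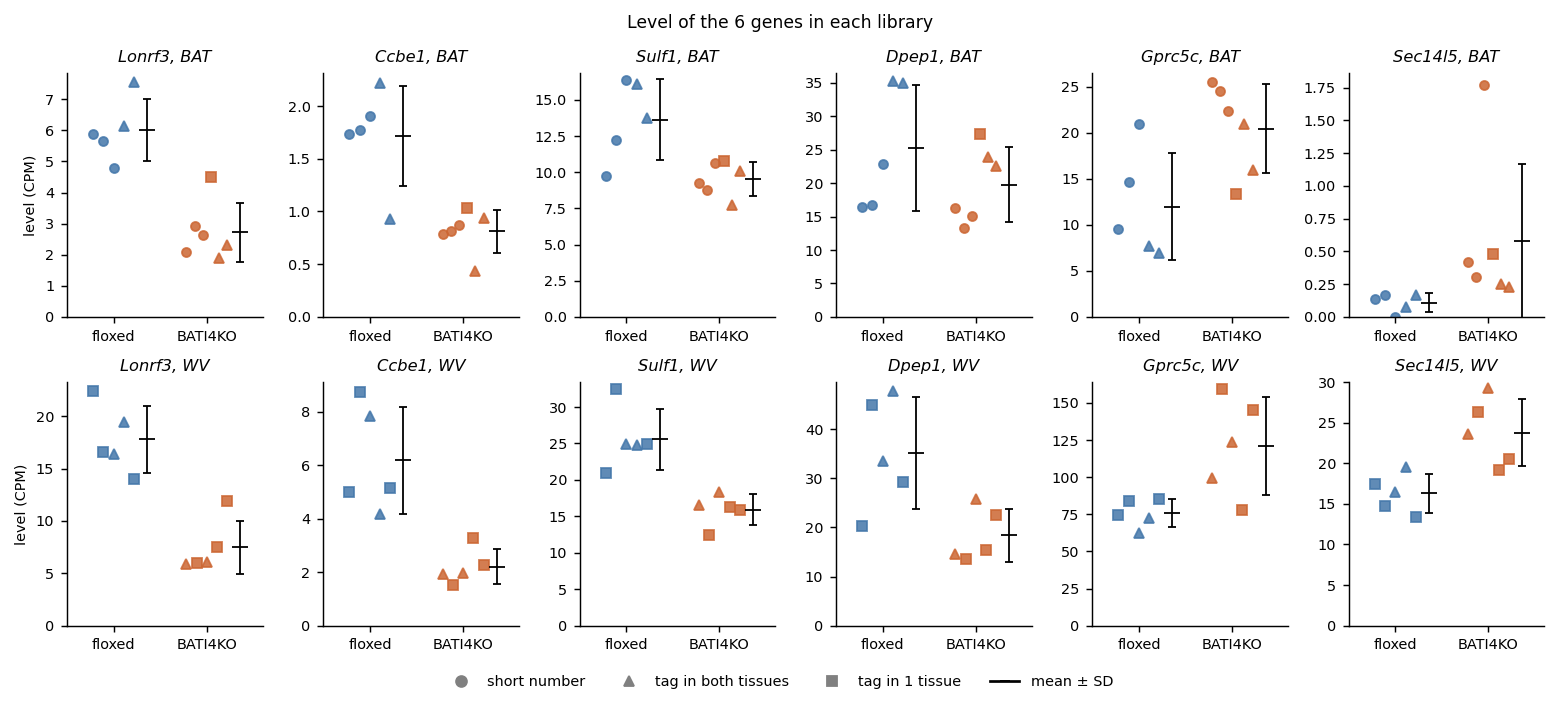
Level of each gene in each library in CPM (vertical axes, starting at 0), with BAT in the upper and WV in the lower row and floxed (blue) beside BATI4KO (orange). Circles are short-number libraries, triangles tags found in both tissues, squares tags found in 1 tissue, and bars the mean ± SD. The Lonrf3 groups do not overlap in either tissue, and 1 BATI4KO library stands at 1.77 CPM of Sec14l5 in BAT.

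Ccbe1 was lower by a similar amount at a lower level. In floxed BAT it stood at 1.74, 1.77 and 1.90 CPM in libraries 1 to 3, at 2.22 CPM in FX_5497 and at 0.933 CPM in FX_5503. In BATI4KO BAT it ran from 0.439 CPM (KO_5492) through a median of 0.844 CPM to 1.03 CPM (KO_5414), on 19 to 47 counts a library. The groups overlapped in BAT through floxed library FX_5503 alone, the lowest of its group. In WV the floxed libraries held 5.01, 8.76, 7.85, 4.18 and 5.14 CPM (FX_5413, FX_5415, FX_5497, FX_5503 and FX_5514) and the BATI4KO libraries 1.95, 1.53, 1.96, 3.27 and 2.28 CPM (KO_5492 to KO_5496 in order). All WV floxed libraries lay above all BATI4KO libraries, and FX_5503 was the lowest floxed library there too. The fitted difference was -1.06 ± 0.26 (log2, SE) in BAT and -1.53 ± 0.26 in WV. The summed lymphatic endothelial markers were at 12.8 to 25.3 CPM in floxed and 12.4 to 17.03 CPM in BATI4KO BAT, and at 18.9 to 46.1 and 12.9 to 26.9 CPM in WV. Of the 6 markers, 5 were tested and 4 of these had a difference below 0 in each tissue, and Ccl21a was at 0 in every library. By edgeR or DESeq2 0 passed, and 1 had an unadjusted p under 0.05 in BAT and 3 in WV. Of all genes, 14.7% in BAT and 8.91% in WV had such a p. By adjusted p, edgeR called 0.0436% and 0.00688% of all genes and DESeq2 2.41% and 0.865%. The marker above 0 was Prox1, the transcription factor of lymphatic identity, at +0.71 ± 0.55 (log2, SE) in BAT and +0.86 ± 0.33 in WV. Prox1 was among the 3 in WV at an unadjusted p under 0.05. Below 0 were Lyve1 (-0.86 ± 0.32 in BAT and -0.96 ± 0.41 in WV) and Mmrn1 (-0.47 ± 0.41 and -1.43 ± 0.54). So were Pdpn (-0.27 ± 0.28 and -0.29 ± 0.25) and Flt4 (-0.27 ± 0.14 and -0.051 ± 0.21). The part of lymphatic endothelial cells in the Ccbe1 difference was not tested. In whole tissue, fewer cells of a type and less RNA per cell cannot be told apart, here and for each gene that follows.

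Sulf1 showed a smaller difference. In floxed BAT it stood at 9.72, 12.2 and 16.4 CPM in libraries 1 to 3, 16.1 CPM in FX_5497 and 13.7 CPM in FX_5503, against 7.76 CPM (KO_5492), a median of 9.68 CPM and 10.8 CPM (KO_5414) in BATI4KO BAT. Floxed library 1 lay within the BATI4KO range, and the other floxed libraries lay above it. In WV the floxed libraries held 20.97, 32.4, 24.9, 24.8 and 24.9 CPM (FX_5413, FX_5415, FX_5497, FX_5503 and FX_5514) and the BATI4KO libraries 16.6, 12.4, 18.3, 16.3 and 15.9 CPM (KO_5492 to KO_5496). The WV groups did not overlap. The fitted difference was -0.53 ± 0.14 (log2, SE) in BAT and -0.71 ± 0.14 in WV.

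Dpep1 overlapped between genotypes in both tissues over all libraries of a tissue. In floxed BAT it stood at 16.4, 16.8 and 22.9 CPM in libraries 1 to 3 and at 35.3 and 35.0 CPM in FX_5497 and FX_5503. In BATI4KO BAT the short numbers 1, 2 and 3 held 16.3, 13.3 and 15.1 CPM and the long tags KO_5414, KO_5492 and KO_5494 held 27.4, 23.97 and 22.5 CPM, a range of 13.3 to 27.4 CPM with a median of 19.4 CPM. Within each title style every BATI4KO library lay below every floxed one. In WV the floxed libraries held 20.3, 44.8, 33.5, 47.9 and 29.2 CPM (FX_5413, FX_5415, FX_5497, FX_5503 and FX_5514) and the BATI4KO libraries 14.6, 13.6, 25.7, 15.4 and 22.5 CPM (KO_5492 to KO_5496). Floxed library FX_5413 lay below BATI4KO libraries KO_5494 and KO_5496, and the other floxed libraries lay above all BATI4KO ones. The fitted difference was -0.42 ± 0.11 (log2, SE) in BAT and -0.96 ± 0.25 in WV.

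Gprc5c was the more abundant of the higher genes. In floxed BAT it stood at 9.60, 14.7 and 20.99 CPM in libraries 1 to 3 and at 7.73 and 6.97 CPM in FX_5497 and FX_5503. In BATI4KO BAT the short numbers held 25.5, 24.6 and 22.4 CPM and the long tags KO_5414, KO_5492 and KO_5494 held 13.4, 20.96 and 15.99 CPM, with a median of 21.7 CPM. The groups overlapped over all BAT libraries, but within each title style every BATI4KO library lay above every floxed one. In WV the floxed libraries held 74.8, 83.8, 62.3, 72.6 and 85.2 CPM (FX_5413, FX_5415, FX_5497, FX_5503 and FX_5514) and the BATI4KO libraries 99.8, 159, 124, 77.6 and 145 CPM (KO_5492 to KO_5496). BATI4KO library KO_5495 lay within the floxed range and the other BATI4KO libraries above it. The fitted difference was +0.90 ± 0.20 (log2, SE) in BAT and +0.66 ± 0.18 in WV.

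Sec14l5 was barely detected in BAT. The floxed BAT libraries held 6, 7, 0, 3 and 8 counts (1, 2, 3, FX_5497 and FX_5503), or 0.139, 0.168, 0, 0.0757 and 0.166 CPM, and the count of 0 allows up to 0.108 CPM by counting error alone. The BATI4KO BAT libraries held 16, 12, 53, 22, 11 and 8 counts (1, 2, 3, KO_5414, KO_5492 and KO_5494), from 0.228 CPM through a median of 0.363 CPM to 1.77 CPM in library 3. The groups did not overlap on the CPM scale, and the gene passed the expression filter through the BATI4KO libraries, the group in which it is high. The fitted difference was +2.21 ± 0.62 (log2, SE), and +1.52 ± 0.48 without library 3. In WV the floxed libraries held 17.4, 14.7, 16.5, 19.5 and 13.4 CPM (FX_5413, FX_5415, FX_5497, FX_5503 and FX_5514) and the BATI4KO libraries 23.6, 26.4, 29.2, 19.2 and 20.6 CPM (KO_5492 to KO_5496). The WV groups overlapped, since BATI4KO library KO_5495 was below floxed library FX_5503, and the difference was +0.53 ± 0.15.

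Skeletal muscle markers had values above 0 beside Sec14l5 in BAT. The 10 muscle markers summed to 66.8 to 373 CPM in floxed and 131 to 3950 CPM in BATI4KO BAT, with library 3 the highest. All 10 had a difference above 0 with a median of +2.69 (log2), against -0.0071 over all genes tested. By edgeR 0 passed, 9 had an unadjusted p under 0.05, and by DESeq2 7 passed. Of all genes tested in BAT, 0.0436%, 14.7% and 2.41% did so. With the muscle score as a covariate the BAT difference of Sec14l5 was +1.13 ± 0.73 (log2, SE). Per 1000 CPM of muscle markers, Sec14l5 stood at 0 to 2.48 CPM in floxed BAT, 0.237 to 2.34 CPM in BATI4KO BAT, 0.0694 to 0.0985 CPM in floxed WV and 0.0776 to 0.167 CPM in BATI4KO WV. The median of this ratio was 1.15 in floxed and 0.467 in BATI4KO BAT, and the libraries of the genotypes overlapped. The part of muscle tissue in its BAT difference was not tested further.

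In WV, fibroblast and macrophage markers did not pass the genotype test, and their values are given beside those of Sulf1 and Dpep1. All 7 fibroblast markers had a WV difference below 0 with a median of -0.72 (log2), 0 passing by edgeR or DESeq2 and 4 at an unadjusted p under 0.05, and they summed to 1094 to 2142 CPM in floxed and 939 to 1523 CPM in BATI4KO libraries. All 6 macrophage markers were also below 0, with a median of -0.50, 0 passing by either tool and 0 at an unadjusted p under 0.05. The macrophage markers summed to 27.5 to 128 against 38.6 to 76.0 CPM. Of all genes tested in WV, 0.00688% passed by edgeR, 0.865% by DESeq2 and 8.91% had an unadjusted p under 0.05. With the fibroblast score as a covariate, the WV difference was -0.39 ± 0.10 (log2, SE) for Sulf1, -0.44 ± 0.24 for Dpep1, -1.28 ± 0.32 for Ccbe1 and -1.32 ± 0.25 for Lonrf3, where it had been -0.71, -0.96, -1.53 and -1.28 without it. With the macrophage score it was -0.58 for Sulf1 and -0.69 for Dpep1. In BAT the fibroblast markers overlapped between genotypes, at 485 to 1141 and 571 to 886 CPM, and with that score the Sulf1 and Dpep1 differences were -0.49 and -0.38. The fibroblast and macrophage covariates were chosen after the data had been seen. The part of fibroblasts or macrophages in the differences of these genes was not tested further.

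**Figure D2:**
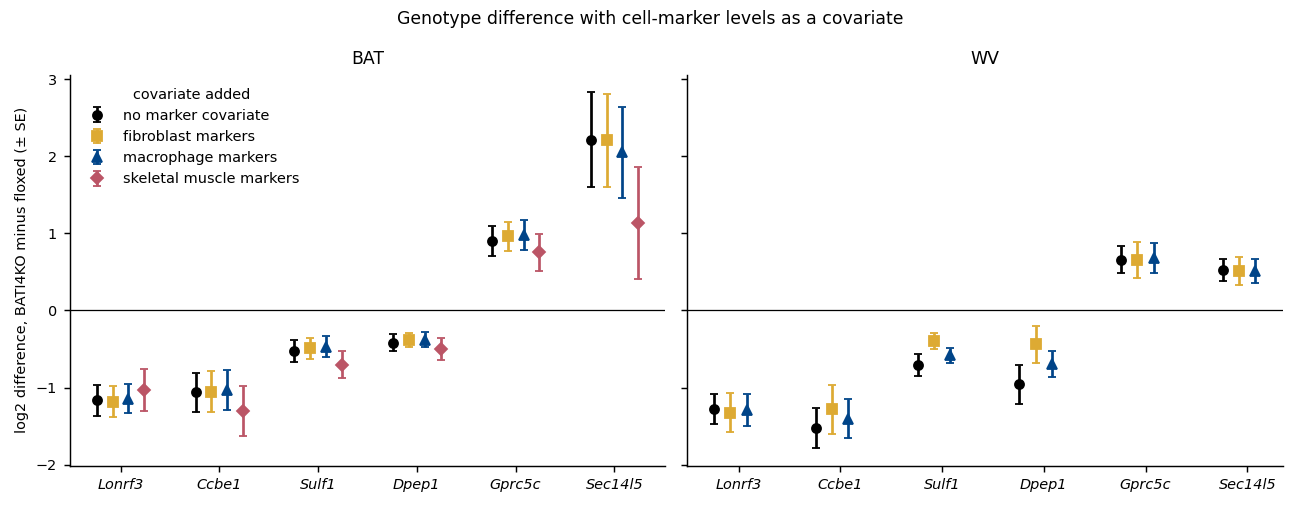
Genotype difference of each gene on the log2 scale (vertical axis, BATI4KO minus floxed, ± SE) in BAT and WV, without and with the mean log2 level of a marker list as a covariate (the muscle list in BAT). Sec14l5 in BAT moves from +2.21 to +1.13 with muscle markers, and Dpep1 in WV from -0.96 to -0.44 with fibroblast markers.

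Read over all genes, the separations stood as follows. Both fits tested all 6 genes. In BAT, Lonrf3 (lower) and Sec14l5 (higher) did not overlap between genotypes, as for 0.343% and 0.586% of tested genes in those directions, and within each title style Lonrf3 and Dpep1 (lower, 1.31% of genes) and Gprc5c and Sec14l5 (higher, 1.84%) did not. In WV, Lonrf3, Ccbe1 and Sulf1 did not overlap, as for 0.723% of genes in the lower direction, and neither of the higher genes separated, as 0.468% of genes did. Of 14104 genes tested in both tissues, 2 were lower without overlap in both (0.0142%), Lonrf3 and the monooxygenase gene Fmo2, and 1 was higher (0.00709%), the centriole gene Cenpj; Fmo2 and Cenpj were named after their values were seen. An unadjusted p under 0.05 in both tissues with 1 sign was met by 92 lower genes (0.652%) and 62 higher genes (0.44%). By edgeR's adjusted p, 0 of the 6 passed in BAT, where 0.0436% of 16051 genes did, and 0 of 6 in WV, where 0.00688% of 14529 did; all 6 had an unadjusted p under 0.05 in each tissue, as did 14.7% and 8.91% of genes. DESeq2 called 6 in BAT (2.41% of genes) and 4 in WV (0.865%), where Gprc5c and Sec14l5 were not called. These comparisons chose the genes, and nothing is read from the counts. Lymphocyte markers also separated the genotypes in BAT, with sums of 2.67 to 3.81 CPM in floxed and 4.44 to 14.2 CPM in BATI4KO libraries, 0 of 6 markers passing by edgeR, 3 at an unadjusted p under 0.05 and 1 by DESeq2, and their part in the differences of the 6 genes was not tested.

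The short-number BAT libraries and the WV libraries whose tags are absent from BAT share no tag, and each set gave the same signs. Among short numbers in BAT (3 against 3), the log2 difference ± SE was -1.09 ± 0.18 for Lonrf3, -1.13 ± 0.20 for Ccbe1, -0.42 ± 0.20 for Sulf1, -0.33 ± 0.16 for Dpep1, +0.68 ± 0.26 for Gprc5c and +2.81 ± 0.90 for Sec14l5. Among the WV tags absent from BAT (3 against 3), the same differences were -1.09 ± 0.27, -1.45 ± 0.35, -0.84 ± 0.20, -0.91 ± 0.31, +0.62 ± 0.25 and +0.52 ± 0.17, in the same order of genes. The choice of the genes for a shared sign used these libraries too, so the shared signs are no independent check.

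Among the tags found in both tissues (2 against 2 in each), the BAT differences were -1.69 ± 0.24 for Lonrf3, -1.19 ± 0.53 for Ccbe1, -0.72 ± 0.20 for Sulf1, -0.58 ± 0.14 for Dpep1, +1.35 ± 0.19 for Gprc5c and +0.97 ± 0.63 for Sec14l5 on the log2 scale. In WV these tags gave -1.60 ± 0.16, -1.64 ± 0.34, -0.53 ± 0.14, -1.03 ± 0.30, +0.71 ± 0.17 and +0.54 ± 0.17. In these libraries 5 of the 6 genes did not overlap between genotypes in either tissue, and Ccbe1 overlapped in BAT. With 2 libraries a group such separation is common: in BAT it held for 22.8% of tested genes in the lower and 22.2% in the higher direction, and in WV for 18.5% and 20.8%. Once fitted genotype effects, and in BAT also the additive title-style effect, were taken out of log2 CPM, the residuals of Lonrf3 lay on the same side in BAT and WV in 4 of 4 tags, for instance +0.23 and +0.15 (log2) in FX_5503. Those of Ccbe1 and Gprc5c did so in 3 of 4 and those of Sulf1, Dpep1 and Sec14l5 in 2 of 4, as values of these libraries with no test. These BAT residuals rest on the style term and are not deviations from the plain genotype mean. For Lonrf3, the fitted BATI4KO effects also rest on KO_5414 in BAT (4.51 CPM) and KO_5496 in WV (11.9 CPM). Each was the highest library of its group, and its tag is found in 1 tissue alone.

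**Figure D3:**
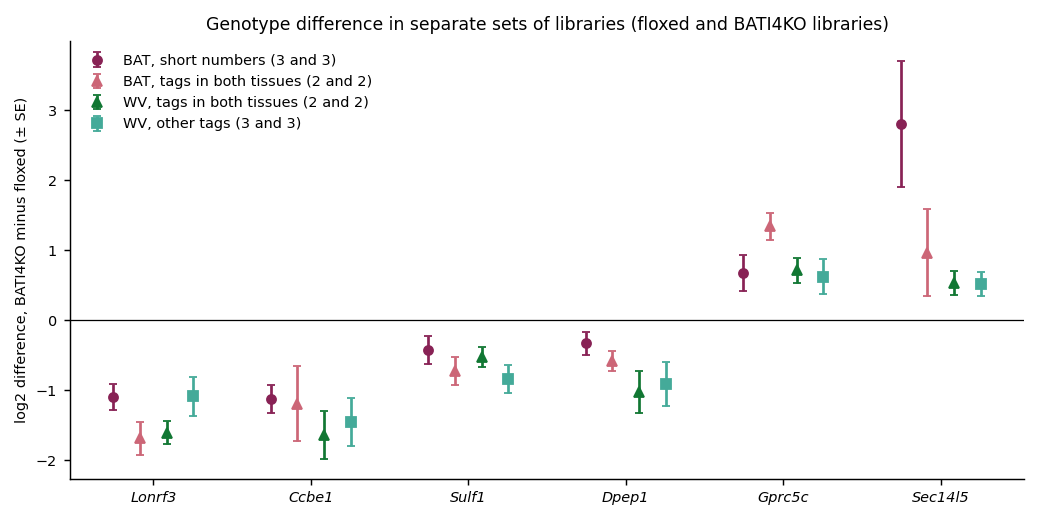
Log2 difference (BATI4KO minus floxed, ± SE) of each gene in separate sets of libraries, with the short numbers and the tags found in both tissues for BAT and the tags found in both tissues and the other tags for WV. Each gene keeps its sign in all 4 sets, and the Sec14l5 difference in BAT runs from +0.97 to +2.81.

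The difference between tissues did not enter the choice of the genes. Of 16632 genes tested over all libraries, 75.2% differed between BAT and WV, 40.3% higher and 34.9% lower in BAT, and 5 of the 6 genes were lower in BAT (edgeR with Benjamini-Hochberg adjustment). Sec14l5 differed most, by -6.81 ± 0.40 on the log2 scale (BAT minus WV, SE, adjusted p = 1.17e-12, edgeR), and Gprc5c by -3.07 ± 0.20 (adjusted p = 8.73e-12). Ccbe1 was lower in BAT by -1.71 ± 0.25 (adjusted p = 2.15e-06) and Lonrf3 by -1.37 ± 0.20 (adjusted p = 2.24e-06). Every WV library of a genotype lay above every BAT library of that genotype for these 4 genes. Sulf1 was lower in BAT by -0.77 ± 0.13 (adjusted p = 1.66e-05) but stood at +0.030 when libraries were scaled by their totals only, a scaling that moved the median of all genes from 0.13 to 0.95. Relative to that median, the Sulf1 difference was below it under either scaling. Dpep1 did not pass (+0.20 ± 0.17, edgeR adjusted p = 0.286) and was called higher in BAT at +0.99 with library totals only (edgeR adjusted p = 0.000157). It lay close to the median of all genes under either scaling, at +0.20 beside 0.13 and at +0.99 beside 0.95.

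Per kilobase of gene model, the order of the genes differed between tissues. In floxed BAT, Dpep1 stood highest at 10.9 CPM per kilobase, followed by Gprc5c at 2.57 and Sulf1 at 2.40, whose libraries overlapped, and then Lonrf3 at 0.740, Ccbe1 at 0.273 and Sec14l5 at 0.0469. In floxed WV, Gprc5c at 16.2 and Dpep1 at 15.1 CPM per kilobase overlapped and stood above Sec14l5 at 6.98, Sulf1 at 4.50, Lonrf3 at 2.19 and Ccbe1 at 0.985.

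Title style in BAT was likewise not used to choose the genes. Dpep1 fell by 0.78 ± 0.11 on the log2 scale in short-number against long-tag libraries (SE, edgeR adjusted p = 0.000272) and Gprc5c rose by 0.77 ± 0.19 (edgeR adjusted p = 0.0103), so 2 of 6 passed where 31.3% of genes did. Lonrf3 (-0.23 ± 0.20), Ccbe1 (+0.14 ± 0.26), Sulf1 (-0.075 ± 0.14) and Sec14l5 (+0.91 ± 0.59) did not pass, with edgeR adjusted p from 0.258 to 0.72. The Gprc5c difference did not pass within 1 genotype alone, at +1.08 in floxed (edgeR adjusted p = 0.0861) and +0.57 in BATI4KO libraries (edgeR adjusted p = 0.0503). A difference of the genotype effect between the styles was passed by 0 of the 6 in edgeR (adjusted p from 0.78 to 0.953), 0 at an unadjusted p under 0.05 and 0 by DESeq2, against 0.00623%, 7.78% and 0.218% of genes by these criteria. Its intervals are wide, with an SE of 0.41 for Lonrf3 and 1.28 for Sec14l5 on the log2 scale, so this does not show that the effects were alike. Choosing genes by their genotype difference over these same BAT libraries can also favour effects alike in both styles, so nothing is read from the count of 0.

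**Figure D4:**
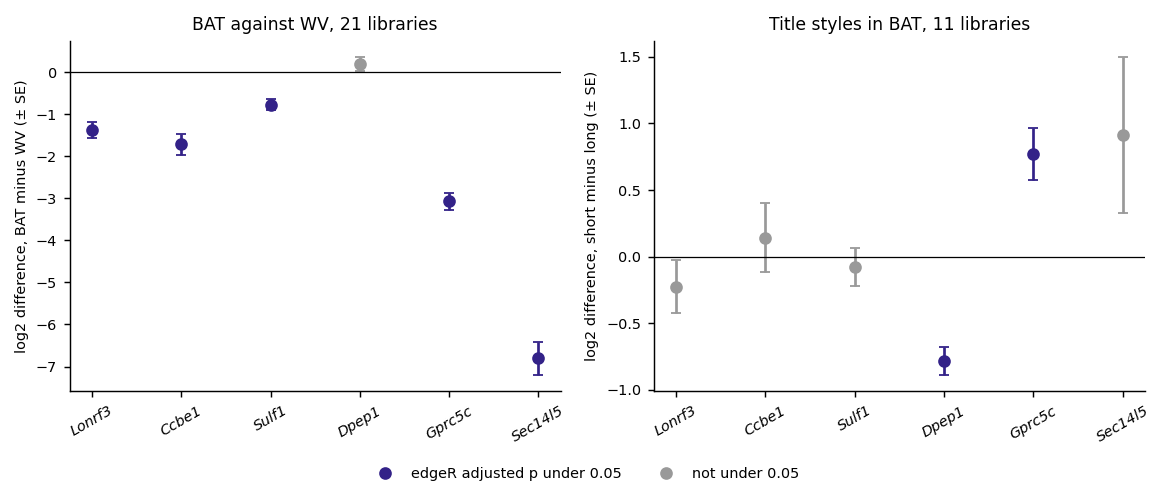
Log2 difference (± SE) of each gene between BAT and WV over 21 libraries (left) and between short-number and long-tag libraries in BAT over 11 libraries (right), with filled blue points for an edgeR adjusted p under 0.05 and grey points otherwise. Sec14l5 and Gprc5c lie farthest below 0 on the left, and Dpep1 and Gprc5c are the blue points on the right.

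Relatives and pathway partners of the 6 genes are given from 6 lists. Of 62 listed genes, 50 were tested in BAT and 46 in WV, and edgeR called 0 in either tissue, where it called 0.0436% and 0.00688% of all genes, so a count of 0 says nothing particular of the lists. An unadjusted p under 0.05 was met by 3 of 50 in BAT, beside 14.7% of all genes, and by 8 of 46 in WV, beside 8.91%, and DESeq2 called 0 and 0, beside 2.41% and 0.865%. The 5 genes related to Lonrf3 had a median difference of -0.079 (log2) in BAT and -0.061 in WV. Among them, Lonrf1 was at +0.080 ± 0.13 and +0.10 ± 0.17, and Lonrf2 at +0.11 ± 0.27 and -0.38 ± 0.25. Lonp2, the Lon protease of peroxisomes and the most abundant of the 5 in floxed BAT at 154 CPM, was at -0.079 ± 0.078 in BAT. Lonp1, the mitochondrial Lon protease and the most abundant in floxed WV at 143 CPM, was at +0.049 ± 0.13 in WV.

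Of 12 genes around CCBE1 and VEGF-C, 11 were tested in each tissue, 5 above 0 in BAT and 6 in WV, with medians of -0.080 and +0.077 (log2) against -0.0071 and -0.0078 over all genes. Vegfc, the growth factor itself, was at +0.27 ± 0.23 in BAT and +0.23 ± 0.28 in WV, and Adamts3, the protease that CCBE1 assists, was at +0.23 ± 0.16 and -0.18 ± 0.23. Flt4, the VEGF-C receptor of lymphatic endothelium, was at -0.27 ± 0.14 and -0.051 ± 0.21. Values of Lyve1, Prox1 and Pdpn, also on this list, are given above with the lymphatic markers. Kdr, the main VEGF receptor of blood vessels and the most abundant gene of the list in floxed libraries of both tissues, was at -0.23 ± 0.16 and +0.86 ± 0.29.

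Of 23 genes of heparan sulfate synthesis and editing, 18 were tested in each tissue, 10 above 0 in BAT and 11 in WV, with medians of +0.028 and +0.082 (log2). Sulf2, which removes the same sulfate groups as Sulf1, was at +0.026 ± 0.12 in BAT and -0.19 ± 0.21 in WV. Ndst1, which replaces acetyl by sulfate groups on the chain and was the most abundant of the list in floxed libraries of both tissues, at 80.8 CPM in BAT and 113 CPM in WV, was at -0.081 ± 0.13 and +0.30 ± 0.15.

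Of 10 dipeptidase, glutathione and leukotriene genes, 7 were tested in BAT with 6 above 0 and 6 in WV with 0 above 0, with medians of +0.069 and -0.30 (log2). Lta4h, which makes another leukotriene and was the most abundant of them, was at +0.21 ± 0.079 in BAT and -0.081 ± 0.13 in WV. The dipeptidase genes Dpep2 and Dpep3 were too low for the genotype tests. Gprc5b, the most abundant relative of Gprc5c, was at +0.12 ± 0.17 in BAT and -0.13 ± 0.13 in WV, and Gprc5a was tested in BAT alone, at -0.40 ± 0.32. Of 9 SEC14-like and related proteins, 7 were tested in BAT with 2 above 0 and 5 in WV with 1 above 0, with medians of -0.042 and -0.30. Sec14l1, the most abundant of these, was at -0.042 ± 0.10 and -0.035 ± 0.11. Between tissues 40 of 52 tested relatives and partners passed by edgeR, beside 75.2% of all genes.

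**Figure D5:**
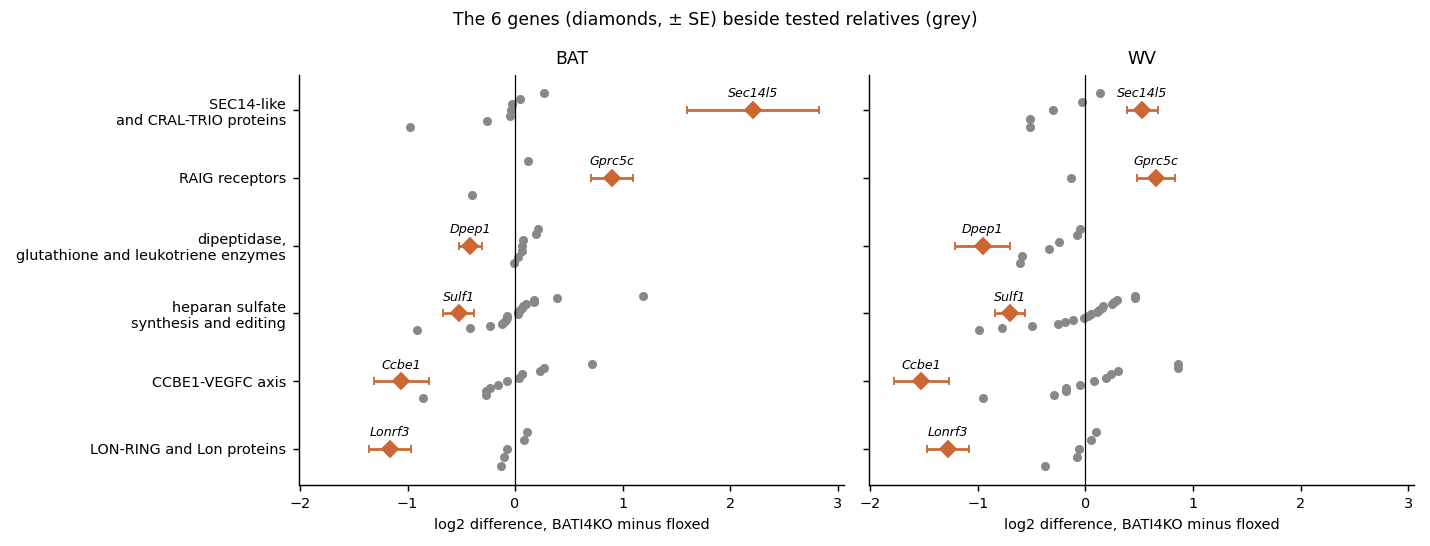
Genotype difference on the log2 scale (horizontal axis, BATI4KO minus floxed) in BAT (left) and WV (right) for the 6 genes (orange diamonds, ± SE) and each tested gene of the 6 lists of relatives and partners (grey points). No grey point passed the edgeR test in either tissue, and the diamonds were chosen for their difference.

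Beyond genotype, the genes most like each gene between libraries are listed. They were picked as the highest in correlation of all genes compared. How high such a maximum lies for any gene by chance was not tested, so nothing is read from its size. After genotype means (and title-style means in BAT) were taken out, Pearson's r of log2 CPM was averaged over the 11 BAT and the 10 WV libraries for 12056 genes, as a description of libraries that share depth and handling. Sulf1 was most like Ifngr1, an interferon-gamma receptor chain (mean r 0.93, with Spearman's rho 0.89 in BAT and 0.85 in WV), and next Lpar1, a lysophosphatidic acid receptor (0.87, rho 0.75 and 0.85). Dpep1 was most like Cd163, the haemoglobin scavenger receptor of macrophages (mean r 0.85, rho 0.75 and 0.87), and F13a1, a coagulation factor subunit (0.84, rho 0.77 and 0.79). Lonrf3 was most like Ryk (0.85, rho 0.86 in BAT and 0.64 in WV) and Pgrmc2 (0.82, rho 0.69 and 0.53). Ccbe1 was most like P2rx7 (0.84, rho 0.80 and 0.94) and Hmgn2 (0.83, rho 0.76 and 0.68). Gprc5c was most like AK017645 (0.89, rho 0.59 and 0.93) and Rfx5 (0.81, rho 0.85 and 0.68). Sec14l5 was most like Lrrc14 (0.83, rho 0.92 and 0.70) and Lmbr1l (0.80, rho 0.72 and 0.81). For AK017645 in BAT and for Ryk and Pgrmc2 in WV, the rank correlation was well below Pearson's r. Among the genes themselves, Sulf1 and Dpep1 had r = 0.74 in BAT and 0.70 in WV, and Ccbe1 and Sulf1 had 0.53 and 0.59. Gprc5c and Sec14l5, the higher genes, had r = -0.67 in BAT and 0.20 in WV. Sec14l5 held 0 to 53 counts a library in BAT, with floxed library 3 the lowest and BATI4KO library 3 the highest. Every BAT correlation of Sec14l5 rests on these low counts, and no rank correlation is given for its pair with Gprc5c.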

How the data were processed

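RNA was measured in 11 BAT and 10 WV libraries. Per the labels' protocols, total RNA was depleted of ribosomal RNA, copied from random hexamers and made into libraries with the Nextera XT kit. The authors deposited, per the file headers, 1 table per tissue of raw read counts per gene model, with the model's symbol and length in bases. Per the submitters' processing notes, edgeR, featureCounts 1.4.6, SAMtools 0.1.19, Picard 2.2.4, TopHat2 2.0.14 and bcl2fastq 2.17.1.14 were run, in an order not stated, with build mm9. Their settings were not given in the sources used here. Of the columns of per-sample values, 0 were left unused.

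From the counts, genes were filtered with edgeR's filterByExpr on genotype (on the 4 groups for BAT against WV), scaled by TMM and tested with the quasi-likelihood F test of edgeR 4.0.16 (R 4.3.3), with Benjamini-Hochberg adjustment over all genes tested and a threshold of 0.05. BAT genotype carried title style as a covariate, BAT against WV the groups and title style, and WV genotype no covariate. With title style in the model, the tissue difference compares long-tag libraries. DESeq2 1.42.0 was an alternative. SE is the log2 difference divided by the root of F. CPM are counts per 1000000 of TMM-scaled library sizes over all 21 libraries; log2 CPM used a prior count of 2. Counts are not independent molecules, and limits from a count of 0 (3 counts of the total) cover counting error only. Replicate libraries differed by more than sampling noise in a chi-square test of their counts (smallest value per gene 30.4), so all were kept.

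The genes named are the 6 chosen genes, Irf4 and Ucp1 as checks, listed relatives that passed a genotype test or otherwise the most abundant one in each tissue, and for each of the 6 genes the 2 genes most like it among those of at least 1 CPM on average in both tissues. Further relatives, Mmrn1, Fmo2 and Cenpj were named after their values were seen. The 6 genes and all lists were chosen with earlier results of these data known. The scripts were tested on simulated counts. Positions and promoter sequences came from annotations of GRCm38, matched by symbol, and no coordinates of the count tables are given. Alternatives were RLE and total scaling, 2 other filters, other covariates and prior counts, subsets of libraries, each library left out, and replicate blocks.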

Additional observations from a re-analysis of the deposited data

Results flagged for a closer look

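In 24 groups of libraries of the 6 genes, 2 single libraries stood apart from the rest of their group by Dixon's criterion, which chance meets in about 1 in 20 groups. BATI4KO library KO_5496 held 11.9 CPM of Lonrf3 in WV, where the nearest library of its group held 7.52 CPM and the farthest 5.86 CPM. BATI4KO library KO_3 held 1.77 CPM of Sec14l5 in BAT, where the nearest held 0.484 CPM and the farthest 0.228 CPM; its summed muscle markers, at 3950 CPM, were also the highest of the BAT libraries.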

How the results depend on the processing

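The 12 genotype differences of the 6 genes kept their sign under every alternative in which the gene was tested. The filter of 1 CPM dropped Sec14l5 in BAT. The genes were chosen for these signs in the same libraries, so the kept signs are no independent check. Of 694 values of the 6 genes under alternatives, 673 kept direction and side of the threshold or moved by less than the replicate spread. Among the rest were 4 genotype values in BAT and 2 in WV. With library totals only, Sulf1 reversed to +0.030 between tissues and to +0.031 between title styles, and Dpep1 passed at +0.99 between tissues. That scaling put the median of all genes at 0.95 between tissues and at 0.14 between title styles. Without the style covariate Dpep1 was at -0.18 between tissues, and among BATI4KO libraries alone Sulf1 was at +0.038 between styles. The causes were not tested. Leaving out each library gave between styles -0.068 to 0.38 for Ccbe1 and -0.16 to 0.0036 for Sulf1, and for genotype by style -0.11 to 0.61 for Lonrf3 and -0.91 to 0.36 for Ccbe1. Without BAT BATI4KO library 3 and with no filter, a check added after seeing the data, Sec14l5 was at +1.52, and over all libraries left out so it ran from 1.52 to 2.63; the filter dropped it in 5 of 11 such fits.

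The genotype calls in BAT, 7 by edgeR, were 3 with a filter of 1 CPM, 372 by DESeq2, 1 without the style covariate, 0 in short numbers alone (1212 at an unadjusted p under 0.05), 28 in tags found in both tissues, 1 with the muscle score, 3 with the fibroblast score, 12 with the macrophage score and 1 to 16 leaving out each library. In WV, 1 became 0 with library totals only, 5 with no filter, 0 with 1 CPM, 111 by DESeq2, 19 in tags found in both tissues, 0 without them, 0 with the fibroblast score and 0 to 11 leaving out each library. Genotype by style gave 35 by DESeq2 in place of 1, and 0 to 1 leaving out each library. Style calls were 656 in floxed and 3028 in BATI4KO libraries in place of 5031, and 3435 to 5306 leaving out each library. The marker scores were added after seeing the data. Each symbol had 1 model, so summing models changed no value and was not run.

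Same-numbered short libraries of the 2 genotypes correlated at 0.19, -0.12 and 0.13 in their deviations over 13414 genes. Tags across tissues correlated at -0.028 to 0.13. What true pairs would give is not known, so these values do not settle whether a shared number or tag marks a pair. With title numbers as a replicate block the BAT count was 2, and with tags as a replicate block Sec14l5 was at -6.91 and Dpep1 at +0.031 between tissues, with no call of the 6 genes changed. Low counts limit Sec14l5 in BAT (0 to 53) and Ccbe1 in BAT (19 to 88).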
